A study of Mus musculus with 11 samples.

Results

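The transcripts described here are 10 chaperone genes, some constitutive and some raised by heat, unfolded protein or rough handling: *Hspa1a*, *Hspa1b*, *Hspa5*, *Hspa8*, *Hsph1*, *Hspb1*, *Dnajb1*, *Dnaja1*, *Hsp90aa1* and *Hsp90ab1*. They were taken by name, through the Entrez gene ID of each row, from 27179 rows of a gene count table, and the rule used names only. All 10 were among the 11948 genes that passed the filter on low counts. The libraries came from bulk RNA-seq of CD31hi EMCNhi endothelial cells (ECs), a sort gate that takes in type H capillaries of healthy bone, from bone marrow of BALB/c mice aged 8 to 10 weeks. Tumour-burdened mice carried 4T1.2 cells, a BALB/c mammary cancer line labelled with red fluorescent protein, and their bones were microdissected by that fluorescence. The 3 met libraries hold ECs of tumour-infiltrated marrow, the 6 non-met libraries those of adjacent tumour-free marrow in the same mice, and the 2 control libraries those of healthy mice of the same age. The burdened animals were pooled, 1 to 4 mice a pool, and the labels give 4 burdened pools. The study sorted controls from 3 pools and removed 1 sample for low mapping, and the 2 control libraries carry different pool labels. Non-met 1 and 5 shared burdened pool 1. Met 1 shared pool 2 with both non-met 2 and non-met 6, while met 2 was paired with non-met 3 (pool 3) and met 3 with non-met 4 (pool 4), so the 9 burdened libraries are not 9 independent sets of animals. Bones in all groups were crushed and digested with collagenase before cell sorting, and the microdissection step applied to burdened bones only, so tumour burden and the extra handling cannot be told apart in the comparisons with control.

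Heat-shock proteins bind unfolded or newly made proteins and keep them from aggregating. Hsp70 proteins do so in cycles of ATP hydrolysis, which J-domain co-chaperones start and nucleotide exchange factors reset, while Hsp90 proteins take over many kinases and receptors late in their folding and small heat-shock proteins hold unfolded chains without ATP. Under stress the transcription factor Hsf1 binds heat-shock elements, which are inverted repeats of the unit GAA, upstream of the inducible genes. Unfolded protein in the endoplasmic reticulum (ER) acts instead through ER stress response elements, to which *Hspa5* responds. Tissue digestion and sorting are known to raise the inducible genes of this group, and they are therefore often read as a record of how cells were handled as well as of their state in the tissue.

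Promoter entries of RefSeq (GRCm38.p6) matched 7 of the 10 genes, and the 250 bases before each transcription start were searched on both strands. The short stretches below carry the matches in entries that start at the outer end of the gene, with the matching letters in capitals. The first 4 hold the pair GAANNTTC and the last holds the ER element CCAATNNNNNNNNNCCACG.
Hspa1a, chr17:34972241-34972272, minus strand: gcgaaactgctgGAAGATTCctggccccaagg
Hspa1b, chr17:34959323-34959354, minus strand: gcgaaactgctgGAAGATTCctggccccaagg
Dnaja1, chr4:40722332-40722363, plus strand: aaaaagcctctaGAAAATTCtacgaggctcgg
Hspb1, chr5:135887790-135887841, plus strand: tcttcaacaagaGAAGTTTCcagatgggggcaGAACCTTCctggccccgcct
Hspa5, chr2:34772013-34772055, plus strand: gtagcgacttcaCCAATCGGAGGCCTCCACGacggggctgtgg
The promoters of *Hspa1a* and *Hspa1b* differed at 3 of 250 bases and shared the whole stretch printed. In *Hspb1* the pair occurred at 2 places. Both promoter entries of *Hsph1* held the other pair, TTCNNGAA, and those of *Dnajb1* held neither. Among all 32851 promoter entries 12.8% held at least 1 of these 8-letter pairs, so a match is common and describes the sequence only. The ER element, found in *Hspa5*, was present in 0.113% of the entries. No entry of these genes held the longer form GAANNTTCNNGAA or TTCNNGAANNTTC, which overlaps the pairs and was found in 0.466% of entries.

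Counts assigned to genes totalled 19539761 and 5029771 in the controls, 733342 to 7683451 in non-met and 2547520 to 8771860 in met libraries. Levels are given as CPM (counts scaled to 1000000 per library). The floor was taken as 3 reads, which equal 0.147 CPM in control 1, the deepest library, but 5.43 CPM in non-met 4, the shallowest. Whether a weak gene was seen did not follow depth alone. All 10 chaperone genes were above 3 reads in non-met 4, but only 9 in non-met 1 and 7 in non-met 5. All 10 endothelial markers checked, among them *Pecam1* and *Emcn*, were above 3 reads in each group, with a summed level of 8955 and 12926 CPM in control, 9964 to 17141 CPM in non-met and 13729 to 16732 CPM in met, where it was wholly above control. Summed markers of other cells differed between the groups as well. The 6 monocyte and macrophage markers had a median sum of 24.2 CPM in control, 204 CPM in non-met (0.622 to 501) and 28.1 CPM in met. Those of B cells, T and NK cells and red cells summed to at most 96.9, 88.7 and 125 CPM in any library. The 6 stromal markers, of which *Bglap* was at 0 in all groups, summed to 3952 and 10545 CPM in control, while non-met libraries had 1128 to 3697 CPM and met libraries 438 to 2122 CPM. *Cxcl12* alone gave 3224 and 8721 CPM of the control sums. *Cxcl12* and *Lepr* were lower in every burdened library than in both controls. *Col1a2*, *Col1a1* (57.8 and 69.7 CPM in control, 10.9 to 152 in non-met) and *Pdgfrb* (155 and 285, 1.81 to 318) overlapped between control and non-met. The 8 granulocyte markers summed to 77.8 and 359 CPM in control (*Ltf* at 0), against 397 to 4797 CPM for non-met and 35.3 to 204 CPM for met, where *Ltf*, *Elane* and *Mpo* were at 0. The 4 megakaryocyte markers summed to 0 and 31.3 CPM in control, at most 57.7 CPM in non-met and at least 42.5 CPM (median 53.0) in met. The control value was *Ppbp* alone, in control 2, while *Ppbp* and *Gp1ba* were at 0 in met, where *Itga2b* and *Pf4* made up the sum. The 6 epithelial markers summed to 0.978 and 19.5 CPM in control, with non-met libraries at 1.44 to 139 and met libraries at 11.1 to 73.5 CPM. Mitochondrial genes held 5.40% and 6.20% of counts in control, whereas the non-met range was 6.72% to 17.8% and the met range 4.33% to 9.56%. The part of these differences in the values below was not tested, and in bulk libraries fewer cells of a type and less RNA per cell cannot be told apart.

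Together the 10 chaperone genes took up between 0.256% and 0.643% of a library. Their summed level was 3309 and 5558 CPM in control, 2337 to 4120 CPM in non-met and 3445 to 4442 CPM in met libraries, so all 3 groups overlapped. On the log2 scale the sums averaged 12.07 ± 0.53 (SD, n = 2) in control, 11.59 ± 0.26 (SD, n = 6) in non-met and 11.93 ± 0.18 (SD, n = 3) in met. *Hsp90ab1* alone gave 27.0% to 64.0% of the sum, *Hspa5* 14.7% to 37.3%, and the *Hspa1a* and *Hspa1b* pair 0.113% to 18.5%. In non-met 3 the inducible pair, at 18.3%, exceeded *Hspa5*, at 14.7%.

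Levels per transcript length (log2 RPKM, mean of 11 libraries) put the constitutive chaperones first. *Hsp90ab1*, the constitutive cytosolic Hsp90, stood at 9.15, *Hspa5*, the Hsp70 of the ER also called BiP, at 8.27 and *Hspa8*, the constitutive cytosolic Hsp70, at 7.78. *Hspa1b*, a stress-inducible Hsp70, followed at 5.88 and lay below *Hspa8* in 11 of 11 libraries, although the difference of 1.90 was no larger than its SD of 1.97. Next came *Dnajb1*, a stress-inducible J-domain co-chaperone, at 4.90, *Hspb1*, the small heat-shock protein Hsp27, at 4.71, *Hsp90aa1*, the inducible cytosolic Hsp90, at 4.69, and *Dnaja1*, a J-domain co-chaperone, at 4.24. *Hspa1a*, the near-identical neighbour of *Hspa1b*, had 3.38 and *Hsph1*, an Hsp110 protein that resets Hsp70, had 1.19. Of the 9 neighbouring pairs in this order only *Hsp90ab1* over *Hspa5*, by 0.88 with an SD of 0.65, had a mean difference larger than the SD of that difference between libraries, and *Hsp90ab1* was the higher of them in 9 of 11 libraries.

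The genes differed in how far they varied. The SD of log2 CPM (prior count 2) over the 11 libraries was 0.37 for *Hsp90ab1*, 0.44 for *Hspa8*, 0.57 for *Hspa5* and 0.70 for *Dnajb1*, against a median of 2.63 over the 11948 genes tested. It was 1.21 for *Hsp90aa1*, 1.54 for *Dnaja1*, 2.14 for *Hspa1b*, 2.43 for *Hspb1*, 2.94 for *Hspa1a* and 3.33 for *Hsph1*. Low genes vary more in such libraries, so each was also set against the genes whose mean lay within 0.5 of its own. Seen that way *Hspa1b* was unusually uneven, above 97.9% of 755 genes of like level, and *Dnajb1* unusually even, above only 2.45% of 1186 genes. Without non-met 5, where *Hspa1b* was nearly absent, its SD fell to 0.99 and its rank to 83.9%, while *Dnajb1* stayed at 5.89%. *Hsp90ab1* and *Hspa8* ranked at 14.3% and 13.3%, *Hspa5* at 52.4% and *Hsph1* at 74.7%. *Hspa1a* ranked at 81.0%, *Dnaja1* at 73.5%, *Hspb1* at 29.1% (9.09% without non-met 5) and *Hsp90aa1* at 27.7%.

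**Figure D1:**
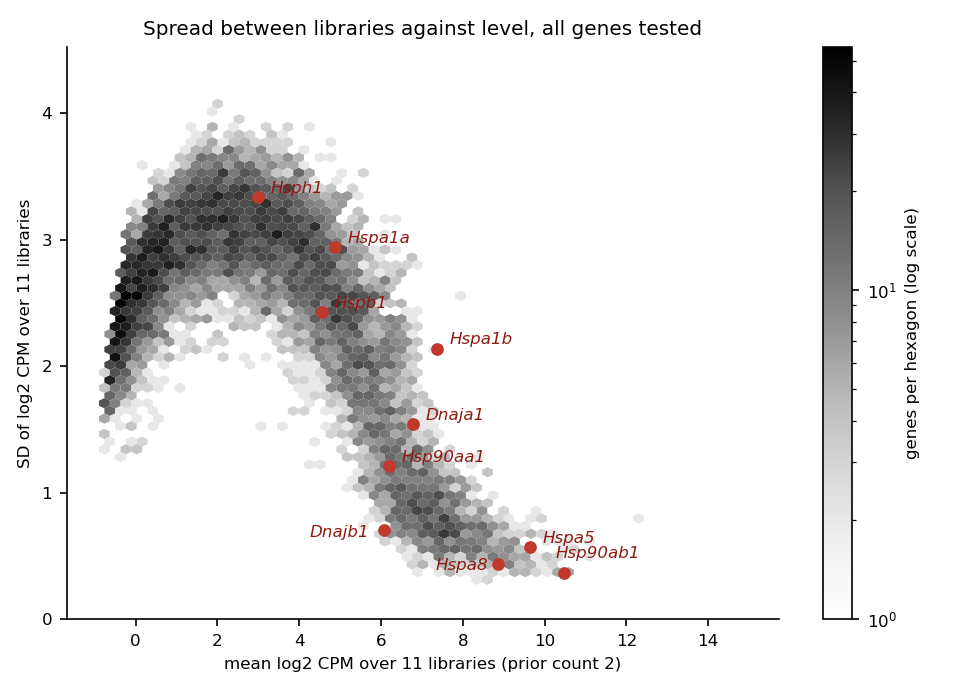
Standard deviation of log2 CPM between 11 libraries against mean log2 CPM, both with a prior count of 2. Grey hexagons count all 11948 genes tested and red points are the chaperone genes. *Hspa1b* (SD 2.14) lies above the band of genes at its level and *Dnajb1* (SD 0.70) lies at its lower edge.

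The stress-inducible Hsp70 genes *Hspa1a* (chr17:34969359-34972156) and *Hspa1b* (chr17:34956429-34959238) differed widely between libraries. *Hspa1b* stood at 178 and 372 CPM in control, at 389, 228 and 576 CPM in met 1 to 3, and in non-met at 2.65 CPM in the lowest, 152 CPM as the median and 684 CPM in the highest library. The lowest value, in non-met 5, came from 5 reads, while non-met 1 from the same mouse pool had 972 reads or 175 CPM. Control and met values thus lay inside the non-met range, and non-met libraries of one pool were 5.87 apart on the log2 scale, against 7.83 for the whole non-met range. *Hspa1a* stood at 34.9 and 102 CPM in control, at 240.1, 23.7 and 150.2 CPM in met, and in non-met at 0, 28.4 and 201 CPM for the lowest, median and highest library. It had 0 reads in non-met 5, where 3 reads would be 1.59 CPM, and 10 reads in non-met 1.

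The balance of the pair moved as well. The transcripts share much of their sequence: 55.8% of the 75-base stretches of the longest *Hspa1b* transcript also occur in *Hspa1a*, and 75 bases is the read length of the study. How reads that fit both were assigned is not given in the sources used here, so the split between the pair is uncertain, and reads dropped for fitting both would lower their sum. *Hspa1a* took 16.4% (95% Wilson interval 15.3 to 17.5, counting error only) of the reads of the pair in control 1 and 21.5% (19.9 to 23.1) in control 2. It took 38.2% (35.7 to 40.7), 9.43% (7.97 to 11.1) and 20.7% (19.7 to 21.7) in met 1 to 3. In non-met the share ran from 0% of 5 reads (0 to 43.4) in non-met 5 and 1.02% (0.554 to 1.86) in non-met 1 to 60.8% (55.7 to 65.6) in non-met 6. The intervals of non-met 1 and non-met 6 are far apart, and the share separated no group from another.

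**Figure D2:**
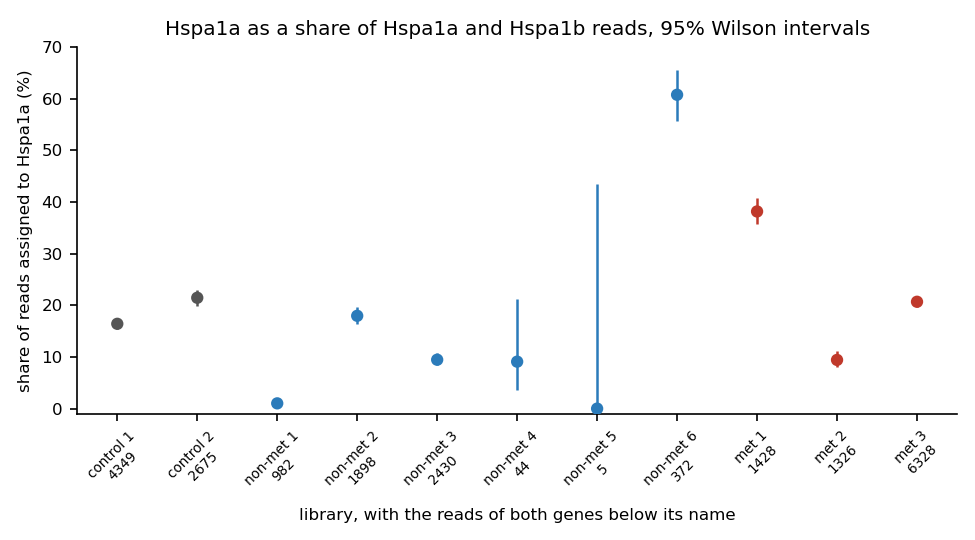
Share of *Hspa1a* among reads assigned to *Hspa1a* or *Hspa1b* in each library, in percent, with 95% Wilson intervals that cover counting error only; the number of reads stands below each library name. The share runs from 0% of 5 reads in non-met 5 to 60.8% of 372 reads in non-met 6, and the met libraries lie between 9.43% and 38.2%.

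*Hsph1* (chr5:149616843-149636498) ranged from 0 reads to high levels. It stood at 47.3 and 178 CPM in control and at 120.3, 0.948 and 21.1 CPM in met. Among non-met libraries the median was 1.51 CPM, with 0 reads in non-met 1 and 5 and a single high value of 79.6 CPM in non-met 4. Non-met 1 was not shallow, as 3 reads there would have been 0.541 CPM, and the high value came from the shallowest library with 44 reads. Both controls were above 5 of 6 non-met libraries. *Hspb1* (chr5:135887919-135889563) had a wide non-met range too, at 55.3 and 73.3 CPM in control and 47.1, 58.6 and 39.6 CPM in met. In non-met it ran from 0 CPM in non-met 5 over a median of 12.1 CPM to 129 CPM in non-met 3. The processed pseudogene *Hsp25-ps1* holds 47.3% of the 75-base stretches of its transcript, so its counts are uncertain. The met and control values of *Hspb1* lay close together and within the non-met range.

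The J-domain co-chaperones differed from each other. *Dnajb1* (chr8:83608175-83612653) stood at 69.6 and 148 CPM in control, 88.5, 64.4 and 20.8 CPM in met, and between 48.9 and 95.4 CPM with a median of 66.6 in non-met. The SD over its non-met libraries was 0.35 on the log2 scale, the smallest of the 10 genes in that group. *Dnaja1* (chr4:40722468-40734965) stood at 188 and 135 CPM in control, 465, 44.5 and 122 CPM in met, and between 7.24 and 218 CPM with a median of 136 in non-met. The low non-met value, in non-met 4, came from 4 reads, and the other 5 non-met libraries lay at or above 76.4 CPM.

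The cytosolic Hsp90 genes behaved unlike one another. *Hsp90ab1* (chr17:45567778-45573261) was at 1447 and 1820 CPM in control, 1463, 1624 and 1476 CPM in met, and 810.2 to 2003 CPM with a median of 1360.5 in non-met. The met values lay within an SD of 0.08 on the log2 scale and inside the range of both other groups. *Hsp90aa1* (chr12:110691036-110696395) was at 118 CPM in both controls, 10.1, 114 and 55.1 CPM in met, and 23.5 to 172 CPM with a median of 96.7 in non-met. It was the only gene of the 10 whose groups did not overlap in any comparison, all 3 met libraries being below both controls, and 12.3% of all genes tested had met wholly below control (20.7% had no overlap in either direction). The highest met value lay just under the lower control, and 53.1% of the 75-base stretches of *Hsp90aa1* recur in transcripts of 3 other annotated genes.

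*Hspa8* (chr9:40801276-40805202) was at 401 and 536 CPM in control, 588, 437 and 575 CPM in met, and 217 to 676 CPM with a median of 442 in non-met. All 3 groups overlapped, and 40.9% of its stretches recur in transcripts of 11 other genes. *Hspa5* (chr2:34772090-34776529), with no shared stretch, was at 771 and 2076 CPM in control and at 1031, 851 and 883 CPM in met. In non-met it ran from 526 to 1066 CPM with a median of 603. There 5 of 6 libraries lay below every met and control library, and non-met 6 lay above all met libraries, so met and non-met overlapped through that library alone.

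**Figure D3:**
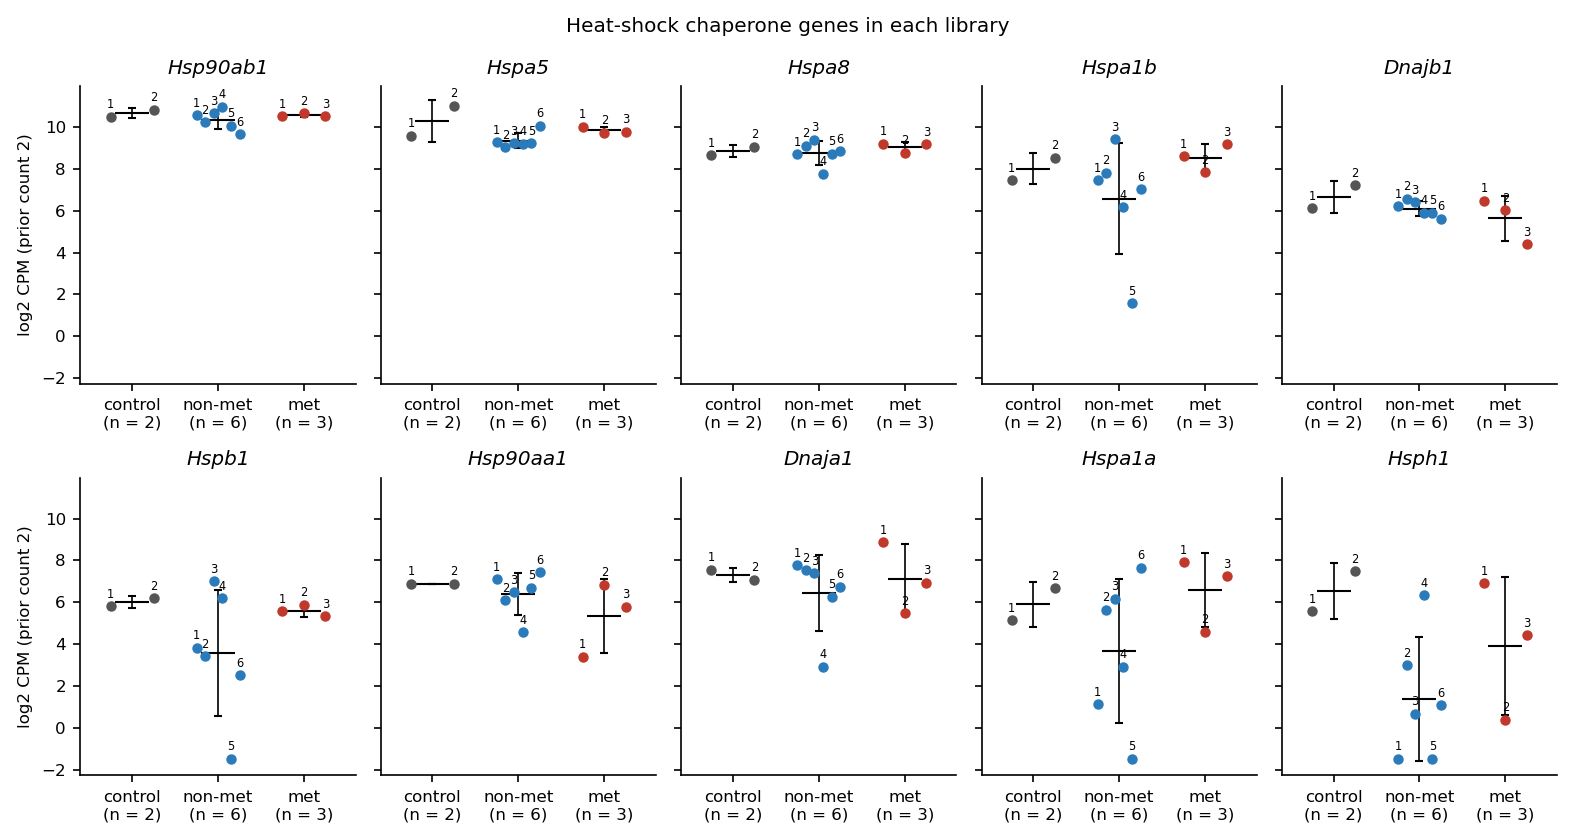
Log2 CPM (prior count 2) of each chaperone gene in every library, ordered by level per length. Points are libraries with their replicate number, bars give the group mean and SD (control n = 2, non-met n = 6, met n = 3). *Hsp90ab1* and *Hspa8* sit in narrow bands, and *Hspa5* spreads from 526 to 2076 CPM. *Hspa1a*, *Hspb1* and *Hsph1* reach 0 reads, drawn at the bottom of the axis, in non-met 5.

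The *Hspa1a* and *Hspa1b* counts were also summed, which removes the uncertain split between them. The summed pair had a log2 fold change in voomLmFit of 1.41 for met against non-met (adjusted P = 0.751), 1.10 for met against control (adjusted P = 0.134) and -0.31 for non-met against control (adjusted P = 0.824), with no call.

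The comparison of met with non-met asked whether ECs in infiltrated marrow carried more or less of these transcripts than ECs of the adjacent marrow. None of the 10 genes passed the test in voomLmFit, with adjusted P between 0.751 and 0.979, against 51 of 11948 genes (0.427%) overall. None had an unadjusted P under 0.05 in that fit, compared with 7.24% of all genes, and limma-trend (0.0167% of all genes called), the edgeR quasi-likelihood test (0.134%) and DESeq2 (2.71%) also called none of the 10. The fitted log2 fold change was above 0 for 7 of 10 genes with a median of 0.39, beside 51.8% of all genes and a median of 0.08. When the shared mouse pools were entered as a block, 4 of 10 were above 0. The largest estimates were 2.21 for *Hspa1a* (95% interval -0.88 to 5.30), 1.65 for *Hspb1* (-1.38 to 4.67) and 1.38 for *Hspa1b* (-0.39 to 3.15). With the pool block they became 1.61, -0.60 and -0.29, so 2 of the 3 turned, and with 1 library left out they ran from 1.56 to 3.33, 1.09 to 2.44 and 0.81 to 1.94. Exact two-sided permutation tests over 84 splits gave unadjusted P of 0.226, 0.321 and 0.286 for them, where 0.0119 is the smallest possible. Closer bounds were obtained for *Hsp90ab1* (-0.07 to 0.46) and *Hspa8* (-0.53 to 0.71), but not for *Hspa5*, whose interval is given below. These narrow intervals lean on single libraries, as met 3 carried 86.4% of the met weight and non-met 2 59.3% of the non-met weight for *Hsp90ab1*, and met 3 carried 62.8% of the met weight for *Hspa8*. For *Hsph1* it ran from -3.66 to 6.39, which leaves room for a large difference in either direction. Met and non-met values overlapped for all 10 genes, and 1.98% of all genes tested had groups that did not.

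*Hspa5* showed the steadiest difference between met and non-met, and it too failed the test. Unweighted limma-trend put it at 0.50 (95% interval -0.16 to 1.17, adjusted P = 0.911) and voomLmFit at 0.58 (-1.53 to 2.69, adjusted P = 0.935), with an exact permutation P of 0.0952. Within mouse pools the met library was higher in 3 of 3, by 0.46 in pool 2, 0.49 in pool 3 and 0.58 in pool 4 on the log2 scale. Pool 2 also shows the limit of that, as its non-met 2 and 6 differed by 1.02, more than either of them from met. When the mouse pool entered voomLmFit as a replicate block, *Hspa5* had 0.66 with an adjusted P of 1.00, and 27 of 9432 genes (0.286%) but none of the 10 were called. Leaving out control 1, a library of neither group, brought *Hspa5* (0.63, adjusted P = 0.0229) and *Hsp90ab1* (0.23) past the threshold in voomLmFit, which then called 0.619% of all genes.

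Within pools the other genes had no common direction. The met library was higher for 9 of 10 genes in pool 2, 3 of 10 in pool 3 and 6 of 10 in pool 4. *Hspa1b* was 1.18 higher in met in pool 2, 1.59 lower in pool 3 and 2.99 higher in pool 4, and *Hspa1a* followed it with 1.26, -1.58 and 4.31. *Dnaja1* had 1.73, -1.89 and 4.01 in the same order, while *Hsp90aa1* had -3.38, 0.34 and 1.21. Libraries of one pool and one group differed by as much, since non-met 1 exceeded non-met 5 by 5.87 for *Hspa1b* and by 5.32 for *Hspb1*. The median absolute difference over all genes between those libraries was 1.45. Against that background *Hspa8* (-0.0080) and *Hspa5* (0.045) were almost equal in non-met 1 and 5.

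**Figure D4:**
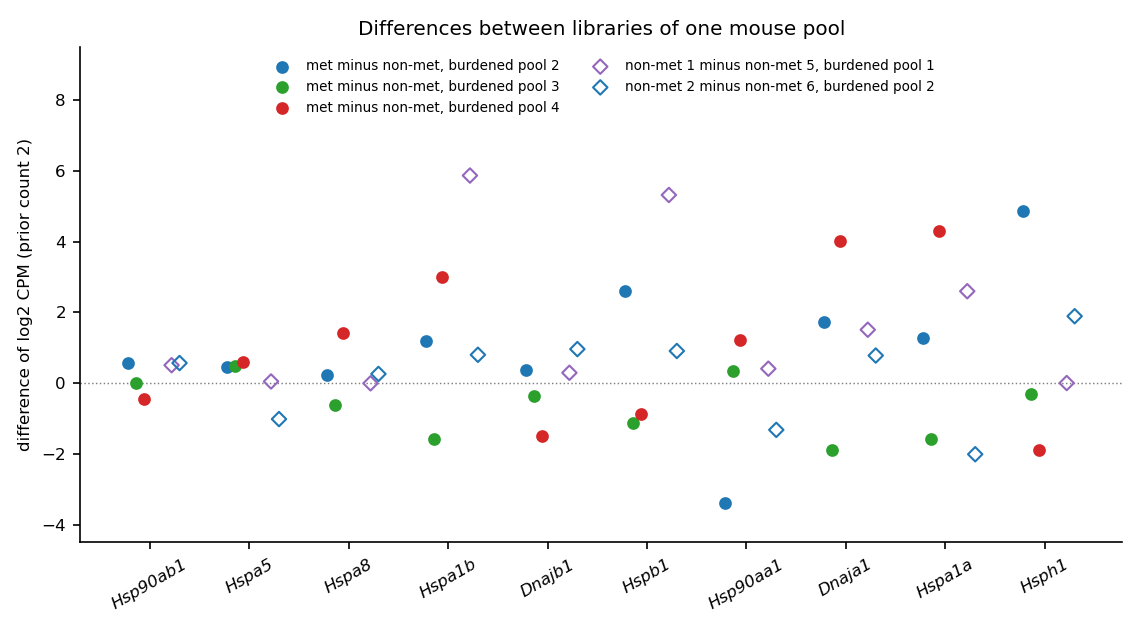
Differences of log2 CPM (prior count 2) between libraries from the same mouse pool, by gene. Filled circles are met minus non-met (mean of 2 non-met libraries in pool 2), open diamonds are non-met minus non-met. *Hspa5* has 3 circles between 0.46 and 0.58, whereas the diamonds of *Hspa1b* and *Hspb1* in pool 1 (5.87 and 5.32) exceed every circle.

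Met was compared with control to set ECs of infiltrated marrow against healthy marrow. None of the 10 genes was called in voomLmFit (adjusted P between 0.244 and 0.928), where 143 genes (1.2%) were. None was called by limma-trend (0.0753% of all genes), the quasi-likelihood test (0.0837%) or DESeq2 (2.03%). *Hspa1b* had the smallest unadjusted P, 0.0242 in voomLmFit with a log2 fold change of 0.98 (0.14 to 1.83) and an adjusted P of 0.244. Control 1 carried 79.8% of the control weight for it, and the estimate fell to 0.18 without control 1 and 0.45 without met 3, and reached 1.36 without met 2. It was the only one of 10 under 0.05 before adjustment, beside 14.1% of all genes. In limma-trend the same difference was 0.53 with an interval of -2.22 to 3.28. The interval of *Hsp90ab1* was -0.08 to 0.15 in voomLmFit and -0.73 to 0.54 in limma-trend. *Hsp90aa1*, whose groups did not overlap, was lower by 1.55 in limma-trend (interval -4.35 to 1.25, adjusted P = 1.00), and the exact permutation P was 0.20, where 10 splits allow no P below 0.100. In voomLmFit 5 of 10 fold changes were above 0 with a median of -0.19, beside 48.0% and -0.09 for all genes.

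Non-met was compared with control to set marrow away from the lesions against healthy marrow, with burden and the microdissection step changing together. Again none of the 10 was called in voomLmFit (adjusted P between 0.146 and 0.811), against 76 genes (0.636%). The shares of all genes called by limma-trend (0.067%), the quasi-likelihood test (0.117%) and DESeq2 (2.03%) held none of the 10 either. The fold change was above 0 for 1 of 10 genes, *Hspa8*, in voomLmFit and for 0 of 10 in limma-trend, beside 44.1% and 32.4% of all genes. The medians were -0.42 for the 10 genes and -0.33 for all genes in voomLmFit, and -0.93 and -0.79 in limma-trend, so the medians lay close to those of the whole table while fewer of these genes were above 0. *Hsph1* had the smallest P: its mean log2 CPM was 1.35 in non-met and 6.52 in control, and voomLmFit gave -4.28 (-7.34 to -1.22), unadjusted P = 0.00826 and adjusted P = 0.146. Unadjusted P under 0.05 was reached by 17% of all genes in this comparison. In the exact permutation test over 28 splits *Hsph1* had an unadjusted P of 0.107, where 0.0357 is the smallest possible. *Hspa5* was lower by 0.96 in limma-trend (-1.73 to -0.19, unadjusted P = 0.0159, adjusted P = 0.758). Groups overlapped for all 10 genes, and 6.29% of all genes had groups that did not.

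The comparisons with control rest on 1 library for the abundant genes. Control 1 carried 98.3% of the control weight in voomLmFit for *Hspa5*, 96.6% for *Hsp90ab1* and 90.3% for *Hspa8*. Control 1 and 2 differed for *Hspa5*, at 771 and 2076 CPM, and the fold change of met against control was 0.17 with both controls and -1.19 without control 1, and that of non-met -0.42 and -1.83. Without control 1 the control group is a single library whose spread is taken from the other groups, and voomLmFit then called *Hspa5* and *Hsp90ab1* (-0.24 and -0.48) in both comparisons, beside 0.491% of all genes for met and 0.683% for non-met.

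**Figure D5:**
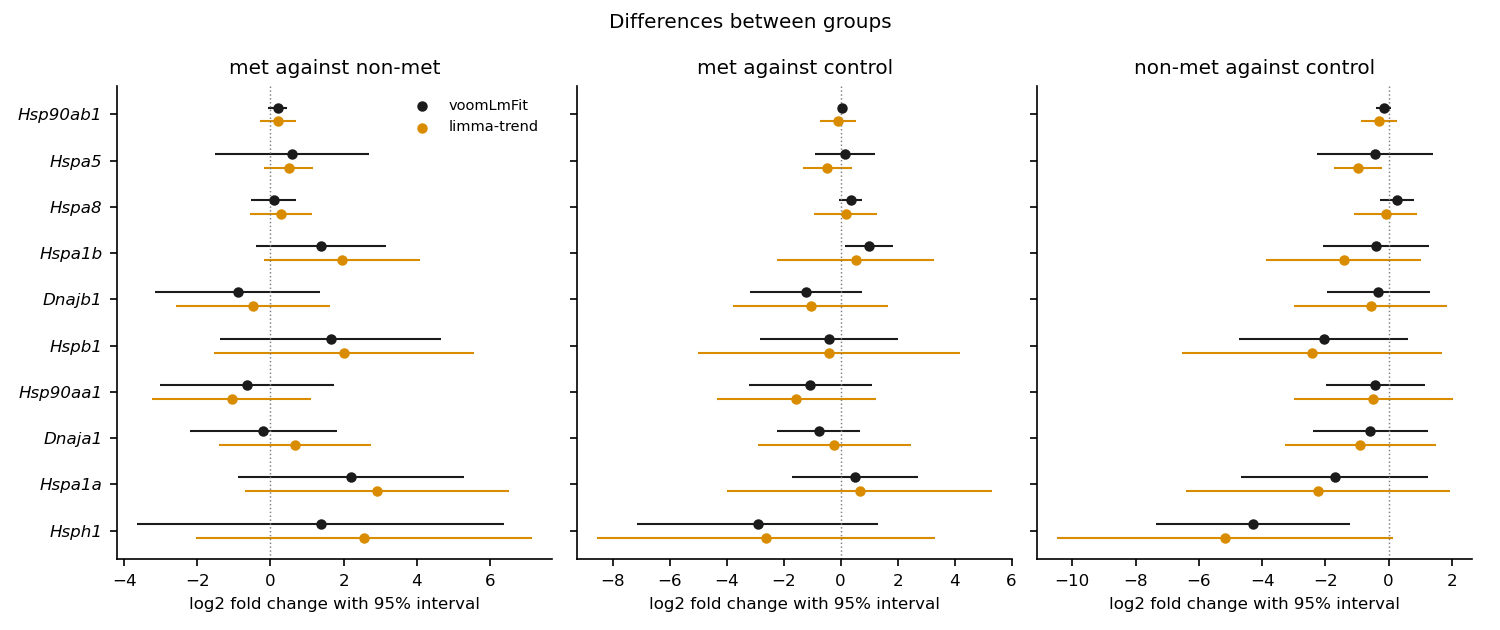
Log2 fold changes of the chaperone genes with 95% intervals in 3 comparisons, from voomLmFit with sample weights (black) and unweighted limma-trend on log2 CPM (orange). Genes are ordered by level per length. For met against non-met in voomLmFit the interval is narrowest for *Hsp90ab1* (-0.07 to 0.46) and widest for *Hsph1* (-3.66 to 6.39), with that of *Hspa5* (-1.53 to 2.69) wide for its level.

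The wider chaperone network was read from lists chosen with earlier results of these data known. Of 74 further chaperone, co-chaperone and ER folding genes 70 were tested. In voomLmFit none was called between met and non-met, 1 between met and control and none between non-met and control. The one, among the 0.686% of all genes called higher in met than in control, was *Pdia3*, a disulphide isomerase of the ER lumen, at 885, 952 and 1142 CPM in met, 608 and 855 CPM in control and 414 to 935 CPM in non-met. It was higher in met than in control by 0.83 (0.62 to 1.04, adjusted P = 1.08e-05 in voomLmFit), yet limma-trend gave 0.45 with an adjusted P of 1.00, and 15 of 23 alternatives called it. The difference fell to 0.41 without control 1, and to 0.62 with the call lost without met 3. For met against non-met it had 0.94 (0.47 to 1.42, adjusted P = 0.0751 in voomLmFit), with a call in 6 of 25 alternatives. *Hsp90b1*, the Hsp90 of the ER, had log2 fold changes of -0.16, -0.04 and 0.12 in the 3 comparisons and *Xbp1*, a transcription factor of the unfolded protein response, -0.76, -0.10 and 0.66, all without a call in voomLmFit. Of 23 alternatives, 3 called *Hsp90b1* lower in each comparison with control, down to -1.37 for met and -1.24 for non-met, and limma-trend gave -0.52 and -0.47 without a call. For *Xbp1*, 2 alternatives called non-met higher than control. *Hspa9*, the Hsp70 of mitochondria, stood at 148 to 207 CPM in met, 82.6 and 169 in control and 39.8 to 493 in non-met, and *Cct3*, a subunit of the TRiC chaperonin, at 164 to 286, 73.1 and 139, and 128 to 337 CPM in the same order. Both ranges in met lay inside those of non-met. *Hsf1* itself was low and uneven, at 32.6 and 42.3 CPM in control, and its range was 5.39 to 152 CPM for met and 0 to 75.5 CPM for non-met. *Bag3*, an exchange factor that is itself induced by heat shock, was at 102 to 162 CPM in met, 63.9 and 95.7 CPM in control and at most 93.3 CPM in any non-met library, the lowest of which had 0. All 3 met libraries of *Bag3* thus lay above every non-met library, and its fold change of 2.63 (-0.10 to 5.37) had an adjusted P of 0.716 in voomLmFit. Of its non-met libraries, 4 stood at 70.6 to 93.3 CPM and non-met 5 and 6 had 0 and 1 read. The pool block gave 1.21 and the alternatives 1.14 to 3.58. *Dnajc7*, a J-domain co-chaperone, lay the other way, at 2.20, 68.2 and 106 CPM in met against 174 to 335 CPM in non-met and 176 and 301 CPM in control. Its fold change for met against non-met was -2.19 (-4.96 to 0.57, adjusted P = 0.751) in voomLmFit and -3.04 (adjusted P = 0.911) in limma-trend, and no alternative called it. Of the 70 genes, 3 had met wholly above non-met and 1 wholly below, beside 1.54% and 0.444% of all genes tested. The other two, named here after their values were seen, were *Dnaja4*, a J-domain co-chaperone, at 3.79 to 115 CPM in met and 0 to 3.77 CPM in non-met, and *Tcp1*, a TRiC subunit, at 165 to 301 and 55.1 to 144 CPM. *Fkbp5*, an Hsp90 co-chaperone, overlapped between the groups, with 287 to 529 CPM in met and 5.95 to 414 CPM in non-met, and had 2.62 (1.02 to 4.21, adjusted P = 0.234 in voomLmFit). With the mouse pools as a block *Fkbp5* had 1.11, the alternatives ranged from 0.71 to 3.18, and 1 of 25 called it, with an adjusted P of 0.0398 in voomLmFit.

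The remaining genes that led their lists by level per length were not called in voomLmFit in any comparison, and *Ubb* for met against control, in 1 alternative, was the only one called in any alternative run. *Hspa12b*, an Hsp70 relative known from endothelium, stood at 154 to 170 CPM in met, 176 and 187 CPM in control and 16.9 to 212 CPM in non-met. *Dnaja2*, a J-domain co-chaperone, was at 152 to 250 CPM in met, 171 and 184 CPM in control and 47.7 to 252 CPM in non-met. *Bag1*, an exchange factor, had 62.9 to 130 CPM in met inside its non-met range of 47.0 to 284 CPM. *St13*, which binds Hsp70 and works with Hsp90, was lower in level in met, at 9.25 to 109 CPM against 94.2 to 224 CPM in non-met, with a fold change of -1.53 (-3.98 to 0.93, adjusted P = 0.796 in voomLmFit). The mitochondrial Hsp90 *Trap1* had 1.32 to 106 CPM in met and 47.0 to 179 CPM in non-met, and the mitochondrial chaperonin *Hspd1* 54.4 to 110 and 11.7 to 226 CPM. *Cct5*, a TRiC subunit, had 206 to 287 CPM in met and 29.0 to 270 CPM in non-met. *Hsbp1*, which binds Hsf1, ran from 18.2 to 76.9 CPM in met and from 0.53 to 215 CPM in non-met. The small heat-shock gene *Hspb8* had 0.881, 45.1 and 71.9 CPM in met 1 to 3 and at most 7.11 CPM in non-met, with a fold change of 3.62 (-0.44 to 7.69, adjusted P = 0.734 in voomLmFit). Its relative *Hspb6* had 0, 14.4 and 16.5 CPM in met and 0 reads in all 6 non-met libraries. Among stress genes outside the chaperones, the ubiquitin gene *Ubb* stood at 389 to 758 CPM in met and 234 to 727 CPM in non-met, and *Sqstm1*, an autophagy receptor, at 209 to 552 and 172 to 497 CPM. Met and non-met libraries overlapped, or shared a value of 0, for each of these genes.

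Immediate early genes are other transcripts that dissociation is known to raise. Of 17 tested, voomLmFit called 3 lower in met than in non-met, 7 lower in met than in control and 3 lower in non-met than in control, and none higher. Of all genes, 0.142%, 0.511% and 0.452% were called lower in these comparisons. *Fos*, a subunit of the AP-1 transcription factor, was lower in met than in non-met by 1.38 in voomLmFit (adjusted P = 2.48e-06) and by 1.00 in limma-trend (adjusted P = 0.116), which called no gene of the list in any comparison. *Junb*, another AP-1 subunit, was at no more than 952 CPM in the met libraries (lowest 669) and no less than 1412 CPM in the non-met libraries (highest 2341), so they did not overlap, as for 0.444% of all genes in that direction. *Jun*, also an AP-1 subunit, was called lower in all 3 comparisons in voomLmFit, by 0.93 for met against non-met (adjusted P = 0.00457), 1.65 for met against control (adjusted P = 3.13e-09) and 0.72 for non-met against control (adjusted P = 0.00194). With the mouse pools as a block the met against non-met call of *Jun* was lost (-0.41, adjusted P = 1.00 in voomLmFit), and 13 of 25 alternatives called it, while *Fos* (-1.27) and *Junb* (-1.31) were called with the block. Of 25 alternatives, 20 called *Fos* and 18 called *Junb*, which lost its call when any single met library was left out. *Jun* stood at 609 to 1674 CPM in met, 718 to 1554 CPM in non-met and 2202 and 2415 CPM in control, so both burdened groups lay below control. *Egr1*, a zinc finger transcription factor, was likewise at 201 to 345 CPM in met and 143 to 458 CPM in non-met, below the 745 and 909 CPM of control, with adjusted P of 0.00374 and 0.0103 in voomLmFit. Of 23 alternatives, 15 called *Egr1* for met and 17 for non-met against control, and DESeq2 and the quasi-likelihood test called neither. The median fold change of the list was -0.93 for met against non-met, that of the 10 chaperone genes 0.39. Whether the 2 lists differ in their response was not tested.

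The 10 genes did not move as a block. Over 45 pairs of genes Spearman's rho across the 11 libraries, which share mouse pools, had a median of 0.28 and ran from -0.36 for *Hsph1* with *Hsp90aa1* to 0.84 for *Hsp90ab1* with *Hspb1*, with 33 pairs above 0. *Hspa1a* and *Hspa1b* had a rho of 0.62, and *Hspa1b* with *Hspa8* 0.82, whereas *Hsp90ab1* with *Hspa5* had 0.02. The mean of the centred log2 values of the 10 genes was lowest in non-met 5 (-2.38) and highest in control 2 (1.32). The values were not scaled, so *Hsph1* (SD 3.33) and *Hspa1a* (2.94) weighed most in this mean and *Hsp90ab1* (0.37) least. Non-met 5 also had the fewest genes with a read, 7618, and came from the pool of non-met 1, which stood at -0.73. Genes whose levels followed this mean most closely, among 4537 genes with a mean of at least 50 CPM, were *Cd36* (rho 0.90), *Antxr1* (0.89), *Wwp2* (0.88), *Col3a1* (0.87), *Afap1l2* (0.87), *Angpt2* (0.87), *Ryk* (0.86), *Dcaf7* (0.85), *Plekhg2* (0.83) and *Ubxn4* (0.82). They were picked as the highest of 4537 correlations over 11 libraries, and no test was run.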

How the data were processed

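Per the labels and the study's methods, the authors sorted small numbers of cells by flow cytometry, amplified total RNA with the SMART-Seq v4 Ultra Low Input kit, aligned reads to mm10 and assigned them to Entrez genes with featureCounts. The deposited values are raw counts with no normalisation. Whether counting used strand, and how reads that fit several genes were treated, is not given in the sources used here. Amplification from little RNA can leave a transcript present in 1 library and absent from the next.

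Symbols and coordinates came from RefSeq (GRCm38.p6) for 25275 rows and from GENCODE for 18. The 1886 unnamed, 36 ribosomal RNA and 1794 predicted rows, between 1.94% and 15.7% of a library, were left out, and 23463 rows remained. filterByExpr (minimum count 10, minimum total 15) kept 11948 genes, and counts were scaled by TMM. Following the study, voomLmFit with sample weights (edgeR 4.0.16, limma 3.58.1, R 4.3.3) was fitted to all 11 libraries in 3 groups, with Benjamini-Hochberg adjustment over all genes and a threshold of 0.05. Alternatives were DESeq2 1.42.0, limma-trend, equal weights for all libraries, edgeR's quasi-likelihood fit, other scalings and filters, mouse pool as a replicate block, library sets and each library left out. Sets divided by *Krt8* were added after the data had been seen. Single genes were also compared by exact permutation of libraries. The scripts were tested on simulated data.

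The genes, lists and rules were chosen with earlier results of these data known. Named besides the 10 genes were, for each list and comparison, up to 3 called genes in each direction by adjusted P, the 2 genes of each list with the highest level per length, and the 10 genes most like the mean of the 10. *Dnaja4* and *Tcp1* were added outside this rule after their values were seen, as their met and non-met libraries did not overlap. Labels pair libraries of the same animals by mouse pool. Deviations from the group means correlated across genes at -0.02 to 0.02 in the 4 pairs of met and non-met libraries from 1 pool, and at -0.05 to 0.07 in the 14 pairs from different pools. P-values measure the spread between libraries, some of which share animals.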

Additional observations from a re-analysis of the deposited data

Results flagged for a closer look

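Single values were compared with the rest of their group only in the non-met libraries, the one group with at least 4 libraries, and 2 values stood out among the 11 sets of values examined. At that size chance picks out about 1 in 20 groups.

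*Dnaja1* in non-met 4 was the lowest of its group at 2.92 log2 CPM. The gap to the next library was 0.689 of the whole range of the group. It rests on 4 reads in the shallowest library, where 3 reads are 5.43 CPM.

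*Hspa5* in non-met 6 was the highest of its group at 10.06 log2 CPM, with a gap of 0.768 of the range. Non-met 6 came from the same pool as non-met 2, which had 526 CPM against its 1066 CPM. It is the library through which met and non-met overlapped for *Hspa5*.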

How the results depend on the processing

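The count of chaperone genes called stayed at 0 in every comparison under the other tests, scalings, filters and weights run. It changed when libraries were left out or a term for library sets was added. Leaving out 1 library at a time gave 0 to 2 calls in each of the comparisons, the 2 appearing without control replicate 1. A term for sets of libraries divided by summed epithelial markers gave 1 call for met and 1 for non-met against control, and the fit within the set of the met libraries gave 1, 2 and 2, with control 2 as its only control. Of the wider lists voomLmFit called 3 genes (met against non-met), 8 (met against control) and 3 (non-met against control). In the same order these were 0, 0 and 0 in both limma-trend and the edgeR quasi-likelihood test, 7, 5 and 0 in DESeq2, 1, 1 and 0 with the *Krt8* set term, 5 for met against control with the epithelial set term, 5 and 6 (first and last) without sample weights, and 6 and 5 (first and last) within the epithelial set. Leaving out 1 library gave 0 to 5, 2 to 11 and 1 to 5.

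Directions of single genes turned as follows. For met against non-met, *Dnaja1* was 0.67 in limma-trend, 0.74 in the quasi-likelihood test, 0.66 in DESeq2, 0.77 with the *Krt8* term, 0.63 and 0.17 within the *Krt8* and epithelial sets and -0.77 to 0.54 with 1 library left out. *Hspa8* was -0.049 under RLE scaling, -0.021 with the epithelial term and -0.055 to 0.23 with 1 library left out, and *Hsp90ab1* was -0.0043 in DESeq2. Mouse pool as a replicate block turned *Hspa1b* to -0.29, *Hspa8* to -0.12, *Hsph1* to -0.069, *Dnaja1* to 1.15 and *Hspb1* to -0.60, and it changed no call of the 10 genes. For met against control, *Hspa5* was -0.76 in DESeq2, -0.037 under RLE scaling, -0.63 in the quasi-likelihood test, -0.13 by library size, -0.46 in limma-trend, -0.051 and -1.20 with the *Krt8* and epithelial terms, -1.23 within the epithelial set and -1.19 to 0.24 with 1 library left out. *Hsp90ab1* was -0.20, -0.064, -0.10, -0.12, -0.095, -0.022, -0.15 and -0.29 in that order of settings, -0.0048 without a low-count filter and -0.24 to 0.12 with 1 library left out. *Hspa1a* was -0.79 and -0.48 with the set terms, -0.37 within the epithelial set and -0.33 to 1.62 with 1 library left out. *Dnaja1* was 0.35 in DESeq2, 0.38 in the quasi-likelihood test and 1.02 with the *Krt8* term, and *Hspa8* was -0.0024 with the epithelial term and -0.0073 within that set. For non-met against control, *Hspa8* was -0.032 in the quasi-likelihood test, -0.10 in limma-trend, -0.018 within the epithelial set and -0.11 to 0.34 with 1 library left out, *Dnaja1* was 0.25 with the *Krt8* term, and *Dnajb1* was 0.0093 without sample weights. With 1 library left out *Hspa1b* ran from -1.31 to 0.11, *Dnajb1* from -1.03 to 0.072 and *Hsp90ab1* from -0.48 to 0.0020. The causes were not tested. RLE scaling moved the median of all genes for met against non-met from 0.08 to -0.09. At this depth 3 reads equal 0.147 to 5.43 CPM, and *Hsph1*, *Hspa1a* and *Hspb1* are the genes with 3 reads or fewer in some libraries.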
